A study of Mus musculus with 4 samples.

Results

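The ribosomal S6 kinases (RSK, genes Rps6ka1, Rps6ka2, Rps6ka3 and Rps6ka6) and the mitogen- and stress-activated kinases (MSK, genes Rps6ka4 and Rps6ka5) are protein kinases activated by ERK. Members were all probe sets annotated to these 6 genes. The annotation used here named 8 such probe sets among 45101 on the array. They belong to Rps6ka3 (3 probe sets), Rps6ka5 (3) and Rps6ka6 (2), that is 3 of 18193 genes with a probe set. Rps6ka1, Rps6ka2 and Rps6ka4 were not analysed here. The family was selected on a measured value, the large difference of Rps6ka6 between the groups below, so the values of that gene are given as a description without a test.

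RNA came from a pair of sublines, glioma-initiating cell-like cells (GIC, labelled tumorigenic; 2 arrays) and non-GIC (labelled nontumorigenic; 2 arrays). Both descend from neural stem cells of C57BL/6 p53-/- mice, taken from the telencephalon at embryonic day 14.5 and grown as spheres with forskolin, PDGF and bFGF. Both received the plasmid pCMS-EGFP-HRasL61, which encodes GFP and activated HRas, together with pBabe-neo, were selected in 0.5 mg/ml neomycin and were sorted for GFP. Tumorigenicity cannot be told apart from any other difference between these sublines, and cells carrying neither the transgene nor the p53 deletion are not part of the comparison. Nothing in the labels ties the replicates to separate cultures, and the spread between them, on which each p-value rests, may be technical. The deposited value is a log2 signal per probe set.

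Each RSK or MSK protein joins an N-terminal and a C-terminal kinase domain in a single chain. ERK binds near the C-terminus and phosphorylates the C-terminal domain, which in turn primes the N-terminal domain, the part that acts on other proteins. In RSK the kinase PDK1 (gene Pdpk1) completes activation, whereas MSK is also switched on by p38 and works mainly in the nucleus on CREB and histone H3. RSK4, the product of Rps6ka6, has been described in mouse embryos as an inhibitor of receptor tyrosine kinase signalling. RSK2, the product of Rps6ka3, is lost in the human Coffin-Lowry syndrome, and MSK1 is the product of Rps6ka5.

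Start-region sequences are shown for Rps6ka6, the member whose RNA differed most, and for Rps6ka5 as a comparison from the MSK branch. They are RefSeq sequences of build GRCm38.p6, from 250 bases before to 50 bases after an annotated start, written 5′ to 3′ on the strand of the gene, with CG dinucleotides in capitals. All 3 windows lie on the minus strand: the upstream Rps6ka6 start at chrX:111537910-111538209, the downstream Rps6ka6 start at chrX:111463448-111463747 and the Rps6ka5 start at chr12:100725071-100725370.
Rps6ka6 upstream start: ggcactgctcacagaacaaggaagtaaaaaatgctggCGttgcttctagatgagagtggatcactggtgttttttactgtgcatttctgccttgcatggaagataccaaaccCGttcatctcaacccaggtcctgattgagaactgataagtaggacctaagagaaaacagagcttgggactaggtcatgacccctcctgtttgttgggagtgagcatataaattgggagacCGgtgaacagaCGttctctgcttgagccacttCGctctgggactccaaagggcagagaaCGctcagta
Rps6ka6 downstream start: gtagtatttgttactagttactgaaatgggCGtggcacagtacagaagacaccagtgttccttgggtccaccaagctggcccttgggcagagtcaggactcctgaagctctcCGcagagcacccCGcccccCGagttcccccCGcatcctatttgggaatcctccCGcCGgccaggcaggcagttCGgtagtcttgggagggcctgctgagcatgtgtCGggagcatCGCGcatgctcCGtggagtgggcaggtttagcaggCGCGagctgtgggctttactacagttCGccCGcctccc
Rps6ka5 start: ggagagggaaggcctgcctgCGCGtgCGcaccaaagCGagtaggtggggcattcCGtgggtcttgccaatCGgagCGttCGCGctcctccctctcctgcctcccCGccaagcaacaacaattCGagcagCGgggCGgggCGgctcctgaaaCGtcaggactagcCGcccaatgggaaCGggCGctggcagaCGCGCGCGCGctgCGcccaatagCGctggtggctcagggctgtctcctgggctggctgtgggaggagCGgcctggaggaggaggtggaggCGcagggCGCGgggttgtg
The upstream Rps6ka6 window held 6 CG dinucleotides, a number that 56.4% of 32851 mouse windows of this length reached or exceeded. Its downstream window held 16, reached by 33.0%, and the Rps6ka5 window held 29, reached by 12.9%. The median over all windows was 7. The upstream Rps6ka6 window carried the TATA motif TATAAA, beginning 33 bases before the start. TATAAA occurs in 13.6% of all windows, counted on both strands, and in neither of the other windows shown. The GC box GGGCGG occurred 3 times in the Rps6ka5 window, once in the downstream Rps6ka6 window and not in the upstream one, against 35.7% of all windows with at least 1. The CREB site TGACGTCA (1.79% of all windows) and the AP-1 site TGACTCA (5.20%) were found in none of the 3 windows on either strand. The shorter CREB core TGACG, which is part of the full CREB site, occurred 1 time in the Rps6ka5 window and in neither Rps6ka6 window, against 20.8% of all windows with at least 1. The arrays do not tell which start was used.

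By the probe set that represents the gene, Rps6ka6 RNA was high in GIC and near the bottom of the array's range in non-GIC. Probe set 1429759_at had 8.64 and 9.63 on the GIC arrays, against 3.95 and 4.32 in non-GIC (log2 signal). The groups lay far apart, with 4.32 log2 units between the lower GIC array and the higher non-GIC array. GIC averaged 9.13 ± 0.70 and non-GIC 4.13 ± 0.26 (SD, n = 2 each), a log2 fold change of 5.00, or 32.0-fold higher in GIC. It ranked 8 from the top among 13366 tested genes. On the GIC arrays these values stood at the 71.8 and 81.8 percentiles of all probe sets, and on the non-GIC arrays at the 8.91 and 15.1 percentiles. Whether the non-GIC signal lies above background was not tested. A fold change against so low a signal can be understated or overstated, because how background was corrected is not given. The gene passed the level filter, which asked for at least 2 arrays above 5.97, only through its GIC arrays.

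The GIC arrays themselves differed by 0.99 for this probe set, a gap that 3.09% of 27575 tested probe sets reached or exceeded. GIC replicate 2 was the higher one. The non-GIC arrays differed by 0.37, a gap that 20.4% reached or exceeded. Omitting GIC replicate 1 gave a log2 fold change of 5.50, and omitting GIC replicate 2 gave 4.50.

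The second Rps6ka6 probe set showed the same direction with a much smaller difference. Probe set 1429760_at had 5.66 and 6.21 on the GIC arrays, against 4.66 and 4.30 in non-GIC. These values stood at the 34.9 and 43.6 percentiles of all probe sets in GIC, and at the 19.1 and 14.8 percentiles in non-GIC. The groups did not overlap, as in 23.6% of tested probe sets with GIC higher, and the log2 fold change was 1.46, or 2.74-fold. Of its 4 values 1 lay above the filter level of 5.97, so it was not part of the fit. Both probe sets were designed from the same expressed sequence tag, per the annotation, so they are not independent readings of the gene. With the mean of both probe sets the log2 fold change was 3.23.

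**Figure D1:**
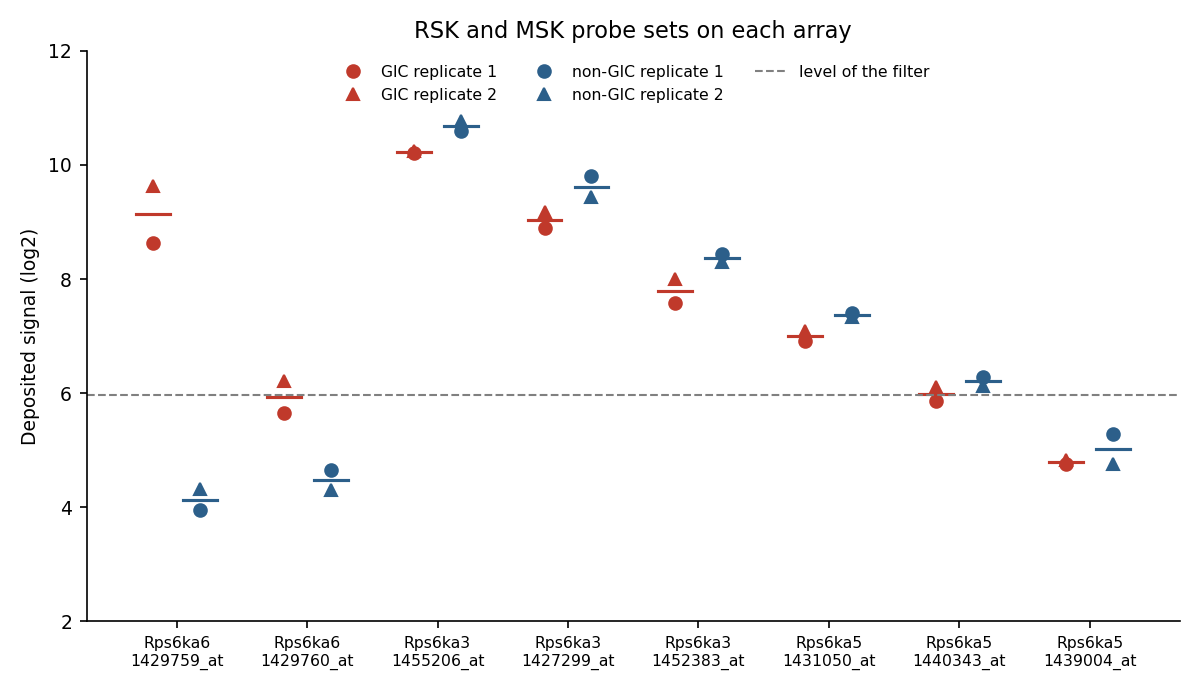
Log2 signal (y axis) of the 8 RSK and MSK probe sets (x axis) on each array, GIC in red and non-GIC in blue, with circles for replicate 1, triangles for replicate 2, bars for group means and a dashed line at the filter level of 5.97. Both Rps6ka6 probe sets were higher on the GIC arrays, with 8.64 and 9.63 against 3.95 and 4.32 for 1429759_at, while the means of all Rps6ka3 and Rps6ka5 probe sets were lower in GIC.

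Rps6ka3 had a lower mean in GIC by all 3 probe sets, without passing the test. Probe set 1455206_at, which represents the gene, had 10.20 and 10.24 on the GIC arrays, against 10.59 and 10.77 in non-GIC. GIC averaged 10.22 ± 0.03 and non-GIC 10.68 ± 0.13 (SD, n = 2 each). The log2 fold change was -0.46 (SE 0.16, limma adjusted p = 0.257), with an unadjusted 95% interval from -0.89 to -0.03. Probe set 1427299_at had 8.89 and 9.17 in GIC, against 9.81 and 9.43 in non-GIC. Probe set 1452383_at had 7.58 and 8.01 in GIC, against 8.43 and 8.30 in non-GIC. In each of the 3 the highest GIC array lay below the lowest non-GIC array, and the log2 fold changes lay between -0.59 and -0.46. Without GIC replicate 1 that of 1452383_at was -0.36. Over probe sets, limma gave adjusted p of 0.271 for 1455206_at, 0.278 for 1427299_at and 0.257 for 1452383_at. Groups lay apart in this direction in 25.7% of tested probe sets, and the 3 probe sets read the same RNA. All 4 arrays were well above the filter level, so the Rps6ka3 values do not carry the low-signal limit of Rps6ka6.

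Rps6ka5 also had lower means in GIC. Probe set 1431050_at had 6.92 and 7.09 on the GIC arrays, against 7.40 and 7.34 in non-GIC. GIC averaged 7.01 ± 0.12 and non-GIC 7.37 ± 0.04 (SD, n = 2 each). The log2 fold change was -0.36 (SE 0.13, limma adjusted p = 0.266), with an unadjusted 95% interval from -0.71 to -0.02. Probe set 1440343_at lay at the filter level, with 5.87 and 6.10 in GIC and 6.28 and 6.13 in non-GIC (log2 fold change -0.22, limma adjusted p = 0.494). Leaving out 1 array gave it values between -0.33 (without GIC replicate 2) and -0.10 (without GIC replicate 1). The third, 1439004_at, was below it on every array, with 4.76 and 4.83 in GIC and 5.28 and 4.76 in non-GIC. The groups overlapped in this probe set. In the other 2 Rps6ka5 probe sets they lay apart with GIC lower, as in 25.7% of tested probe sets.

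None of the 2 tested members besides Rps6ka6 passed limma's adjusted threshold of 0.05 (2 of 2 at an unadjusted p under 0.05), and no Rps6ka3 or Rps6ka5 probe set passed among 5 tested (4 at an unadjusted p under 0.05). Over all genes the adjusted test called 1.92%, with 1.23% higher and 0.688% lower in GIC, and over all probe sets 1.58%. An unadjusted p under 0.05 in the downward direction was reached by 8.10% of genes and 8.33% of probe sets. The whole table gave 257 called genes. This number was 77 or 188 with GIC replicate 1 or 2 left out, and 12 or 56 with non-GIC replicate 1 or 2 left out. Levels of different genes were not compared, because probe sets differ in how they bind their targets.

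**Figure D2:**
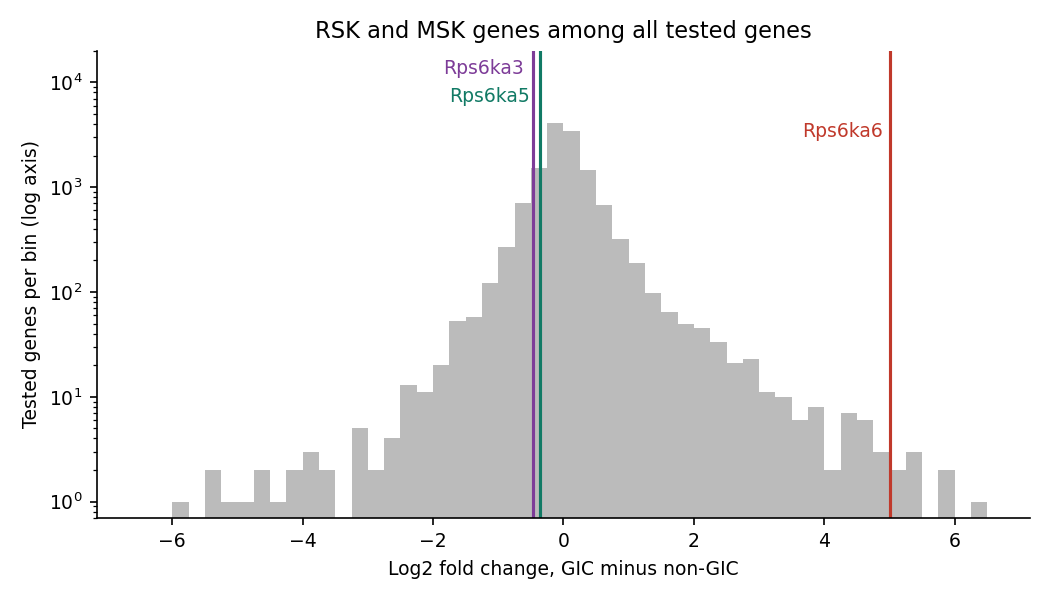
Number of tested genes (y axis, log scale) by log2 fold change, GIC minus non-GIC (x axis), with vertical lines for the 3 family members. Rps6ka6 lies at 5.00 in the upper tail, Rps6ka3 at -0.46 and Rps6ka5 at -0.36, against a median of -0.01 over 13366 genes.

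None of the tested genes of the pathway around these kinases passed the test. Of 85 genes on 5 lists, 77 had a named probe set and 75 were tested. By limma's adjusted p 0 were called higher and 0 lower, against 1.23% and 0.688% of all tested genes. With shares this low, 0 among 75 genes does not set the pathway apart from other genes. In simulated data the fit recovered 18.4% of changes of 1 (log2), so smaller changes can be missed. At an unadjusted p under 0.05, 10 were higher and 3 lower, which 9.75% and 8.10% of all tested genes reached in these directions. The groups lay apart with GIC higher in 21 genes and GIC lower in 19, against 25.5% and 24.9% of all tested genes. The median log2 fold change was -0.05, beside -0.01 over all tested genes.

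The cascade that feeds RSK and MSK had a median of -0.19 over 16 tested genes, of which 11 had a lower mean in GIC, as did 51.5% of all tested genes, and 5 a higher one. Sos1, a guanine nucleotide exchange factor that loads Ras, had 10.45 and 10.34 in GIC, against 9.85 and 10.03 in non-GIC (log2 fold change 0.45, limma adjusted p = 0.273). Averaging its probe sets turned the sign of Sos1, to -0.0596. Pea15a, a cytoplasmic anchor of ERK that also binds RSK2, had 12.10 and 12.10 in GIC, against 12.39 and 12.55 in non-GIC (-0.37, adjusted p = 0.277). The MEK genes Map2k1 and Map2k2 had log2 fold changes of 0.20 and 0.11, and Pdpk1, the kinase that completes RSK activation, had 0.26, with limma adjusted p of 0.573, 0.746 and 0.489. For the p38 arm, Mapk14 had -0.34 and Mapk11 had -0.26 (adjusted p = 0.527 and 0.418). The genes of ERK itself were not analysed here.

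Related kinases spread more widely, from -0.59 to 1.64, with a median of 0.09 over 11 tested genes. Sgk1, a serum- and glucocorticoid-induced kinase of the same AGC group, had 13.11 and 13.22 in GIC, against 12.36 and 12.10 in non-GIC (log2 fold change 0.94, limma adjusted p = 0.0713). Sgk3, its relative on endosomes, had 8.59 and 7.67 in GIC, against 6.73 and 6.26 in non-GIC (1.64, adjusted p = 0.126). With the mean of its probe sets Sgk3 had a log2 fold change of 2.39 and passed (adjusted p = 0.0376). Over all alternatives the adjusted p of Sgk3 lay between 0.0376 and 0.343, and its value was 1.17 without GIC replicate 1. The MAP kinase-activated kinases Mapkapk2 and Mapkapk3 had -0.59 and -0.40 (adjusted p = 0.325 and 0.330), and Mknk1, which acts on the cap-binding protein eIF4E, had 0.62 (adjusted p = 0.343).

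Genes encoding reported substrates of RSK or MSK had a median of 0.02 over 19 tested genes, 10 with a higher and 9 with a lower mean in GIC. Filamin A, Flna, an actin crosslinker, had 12.95 and 12.65 in GIC, against 13.50 and 13.42 in non-GIC (log2 fold change -0.66, limma adjusted p = 0.135). Cebpb, a leucine zipper transcription factor, had 12.75 and 12.07 in GIC, against 11.36 and 11.67 in non-GIC (0.89, adjusted p = 0.211). Without GIC replicate 1 the Cebpb value was 0.55. Creb1, a target through which MSK acts on immediate-early genes, had -0.12 (adjusted p = 0.749). The arrays measure RNA, so they carry no reading of kinase activity or of substrate phosphorylation.

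Immediate-early genes, whose induction RSK and MSK promote, had a median of -0.08 over 18 tested genes. Atf3, a stress-induced transcription factor, had 8.84 and 8.64 in GIC, against 7.42 and 7.97 in non-GIC (log2 fold change 1.04, limma adjusted p = 0.134). Fosl2, a Fos-family partner of Jun, had 11.23 and 11.11 in GIC, against 10.01 and 10.48 in non-GIC (0.93, adjusted p = 0.140). With the mean of its probe sets the Fosl2 value was 0.535. Both genes lay apart between groups, with GIC higher, as did 5 of the 18, while 2 lay apart with GIC lower. Over all tested genes the shares were 25.5% and 24.9%. Jun, the partner of Fos in AP-1, had 12.50 and 12.74 in GIC, against 12.11 and 11.90 in non-GIC (0.62, adjusted p = 0.169). Ier2, a short-lived nuclear protein, had 12.02 and 11.68 in GIC, against 12.80 and 12.15 in non-GIC (-0.62, adjusted p = 0.336). Fos and Egr1 overlapped between groups, with 11.01 and 10.09 in GIC against 9.80 and 10.50 in non-GIC for Fos, and 12.83 and 11.60 in GIC against 12.85 and 12.46 in non-GIC for Egr1.

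Feedback inhibitors of ERK signalling had a median of -0.05 over 11 tested genes. Dusp6, the phosphatase that removes the activating phosphates of ERK, had 11.77 and 11.99 in GIC, against 11.23 and 10.72 in non-GIC (limma adjusted p = 0.156). Spry1, a Sprouty protein, had 9.79 and 9.75 in GIC, against 9.24 and 8.72 in non-GIC (adjusted p = 0.189). The GIC arrays were the higher ones in both genes. Spred2, a relative of Sprouty, had 10.39 and 10.42 in GIC, against 11.01 and 10.88 in non-GIC (adjusted p = 0.194), so here the GIC arrays were lower.

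**Figure D3:**
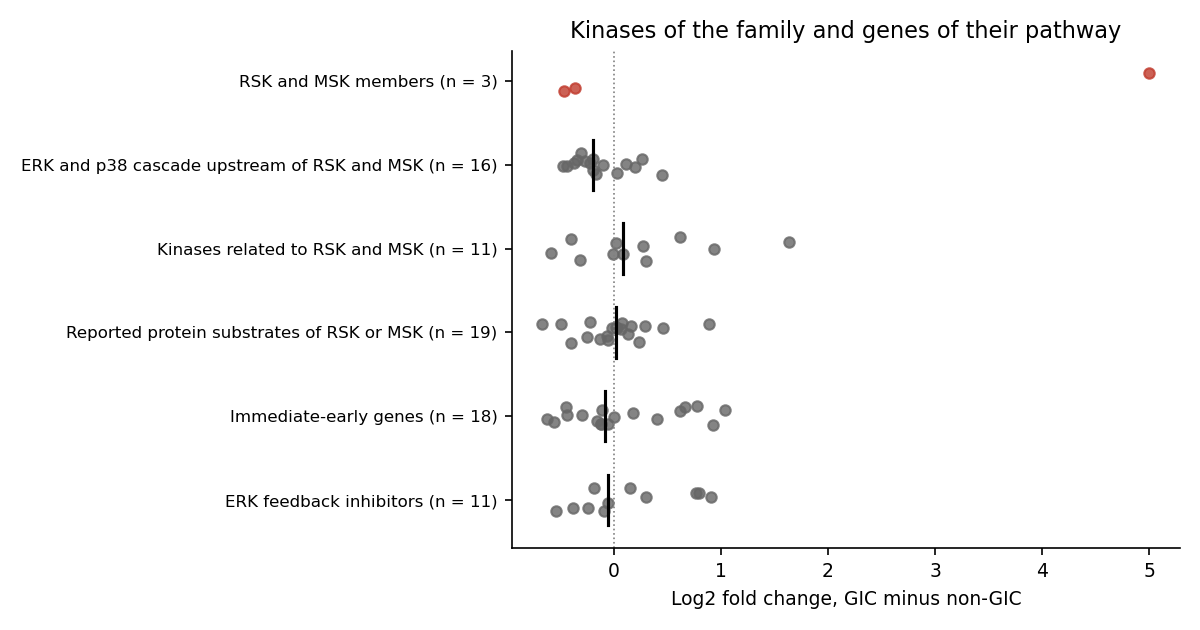
Log2 fold change, GIC minus non-GIC (x axis), of each tested gene of the kinase family (red) and of 5 pathway lists (grey; black bars are list medians). Pathway genes lie between -0.66 and 1.64, and list medians between -0.19 and 0.09, while Rps6ka6 lies at 5.00.

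Rps6ka6 lies on the X chromosome. Of the 20 tested genes beside it, 10 on each side, 4 differed by at least 1 log2 unit between the sublines, against 6.63% of all tested genes. The nearest tested neighbours of Rps6ka6 in the RefSeq gene order of GRCm38.p6 were Pou3f4, a POU-domain transcription factor, and Apool, a mitochondrial cristae protein. Pou3f4 had 6.48 and 6.46 in GIC, against 6.50 and 6.43 in non-GIC. Apool had 9.24 and 8.98 in GIC, against 9.25 and 9.35 in non-GIC (log2 fold change -0.19, limma adjusted p = 0.640). Averaging the Apool probe sets gave -0.0673. Leaving out GIC replicate 1 gave -0.32 for Apool, while -0.0601 was obtained with GIC replicate 2 left out. Pou3f4 overlapped between groups and its mean differed by less than 0.01, a sign that turned with quantile normalization and with median centring. Over the 10 tested genes on each side, which lay 0.57 to 22.6 Mb from Rps6ka6, the median log2 fold change was 0.01, with 11 higher and 9 lower means.

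Of these 20 neighbours, 1 passed, against 1.92% of all tested genes. The gene was Nap1l3, a nucleosome assembly protein-like gene. It had 7.25 and 6.88 in GIC, against 3.93 and 4.73 in non-GIC (log2 fold change 2.73, SE 0.30, limma adjusted p = 0.0335). Its non-GIC values lay below the filter level, like those of Rps6ka6. Nap1l3 did not pass without GIC replicate 1 (adjusted p = 0.114), GIC replicate 2 (0.0649) or non-GIC replicate 1 (0.0742), and passed without non-GIC replicate 2 (0.0459). Over all alternatives its adjusted p lay between 0.00770, with a crossed replicate block chosen after seeing the data, and 0.126, with the replicate block. Apool and Chm stand between Rps6ka6 and Nap1l3, and Chm had a log2 fold change of 0.04, a sign that turned with the mean of its probe sets and without non-GIC replicate 1. Differences of at least 1 log2 unit in either direction were found in 4 of the 20 neighbours. The share was 7.84% of the 408 tested X-linked genes without Rps6ka6, which include the neighbours, and 6.63% of all tested genes. The 408 X-linked genes had a median of -0.04, with 10 called higher and 4 called lower. Of all tested genes 1.23% were called higher and 0.688% lower. Rps6ka3 is X-linked too.

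**Figure D4:**
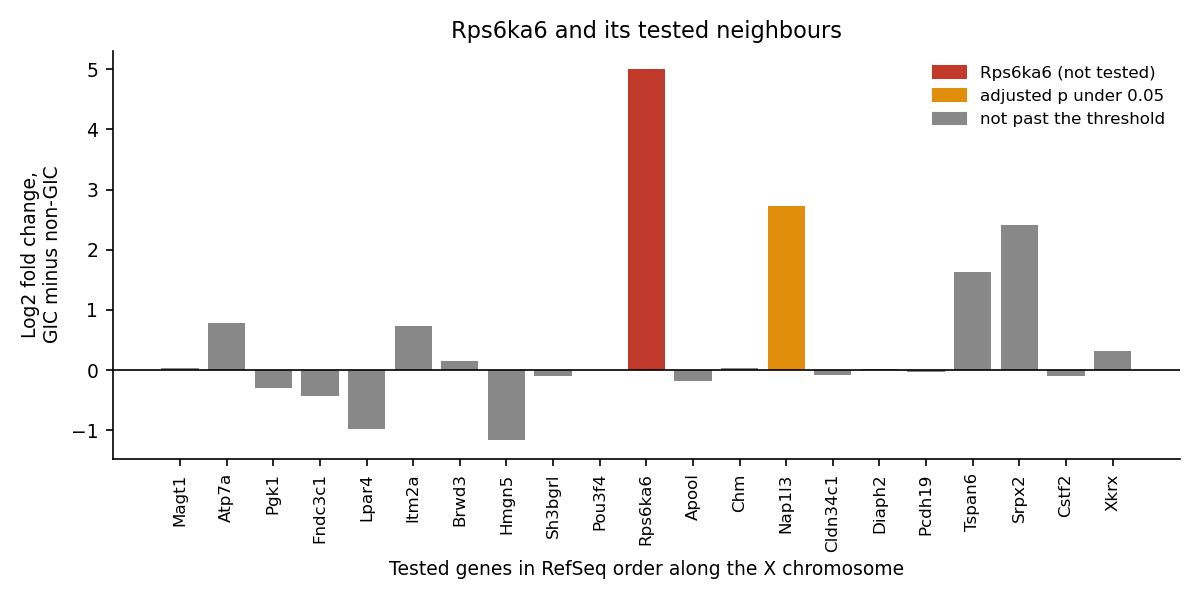
Log2 fold change, GIC minus non-GIC (y axis), of Rps6ka6 (red) and the 10 tested genes on each side of it in RefSeq order along the X chromosome (x axis), with the gene past the adjusted threshold in orange. The neighbours Pou3f4 and Apool lie at 0.00 and -0.19, Nap1l3 at 2.73 and Rps6ka6 at 5.00.

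The tested genes most like Rps6ka6 over the 4 arrays were found by the Euclidean distance between values centred on each gene's mean. The 5 nearest were the growth factor Fgf5 (distance 0.58), the Runt-family factor Runx3 (0.61), the secreted protein Wfdc2 (0.63), the kinase Ripk4 (0.65) and the PR-domain gene Prdm8 (0.66). Rps6ka3 and Rps6ka5 lay at 5.51 and 5.40, where the median of all tested genes was 5.07. Fgf5 had 9.17 and 10.40 in GIC, against 4.98 and 5.63 in non-GIC. Runx3 had 9.99 and 10.22 in GIC, against 5.19 and 5.58 in non-GIC. With 4 arrays the measure is set mostly by the size of the group difference, and it carries no test.

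Pearson's r over tested genes was 0.976 for the pair of GIC arrays, 0.978 for the pair of non-GIC arrays and 0.918 to 0.954 for pairs that cross the sublines. Among defining markers of the labelled neural stem cells, Sox2 had 10.20 and 10.59 in GIC, against 11.15 and 11.44 in non-GIC, Nes had 9.17 and 8.97 in GIC, against 11.45 and 10.81 in non-GIC, and Vim lay between 14.50 and 14.71 on all arrays. Of 10 progenitor markers, 9 were tested, with 0 called higher and 2 called lower in GIC, against 1.23% and 0.688% of all tested genes. The 2 were Nes (limma adjusted p = 0.0459) and Fabp7 (0.0258). Fabp7, a fatty acid-binding protein of radial glia, had 5.23 and 5.23 in GIC, against 6.58 and 6.89 in non-GIC, so its GIC values lay below the filter level. These GIC values were identical (SD 0), so only the non-GIC arrays showed a spread between replicates. Sox9, a transcription factor of neural progenitors, had 10.13 and 9.24 in GIC, against 7.66 and 8.76 in non-GIC (log2 fold change 1.47, limma adjusted p = 0.231). Neither Nes (limma adjusted p 0.0898 to 0.166) nor Fabp7 (0.0507 to 0.110) passed with any 1 array left out. Of the other cell types' markers, 4 of 6 leukocyte, 3 of 5 endothelial and 2 of 6 astrocyte genes did not pass the level filter. Nor did 2 of 7 neuron, 2 of 6 oligodendrocyte and 2 of 6 mural and fibroblast genes. Of all 18193 genes with a probe set 13366 passed it, so such counts alone do not show that a cell type was absent. The mural and fibroblast list stood apart between the GIC arrays, where its members deviated from their own averages by a mean of 0.83 (replicate 1) and -1.07 (replicate 2), against -0.15 and 0.39 for the non-GIC pair. The oligodendrocyte lineage list deviated by 0.34 and 0.24 in GIC, against -0.36 and -0.22 in non-GIC, with 0 of 4 tested genes called. Its member Pdgfra, a PDGF receptor, had 12.51 and 12.09 in GIC, against 9.68 and 10.41 in non-GIC (log2 fold change 2.26, limma adjusted p = 0.0504). The other tested members Cspg4, Sox10 and Mbp had -0.08, 0.003 and 0.13, and the list median was 0.06. The deviation of this list therefore came mostly from Pdgfra. Of 5 tested neuron markers, 2 had a higher and 3 a lower mean in GIC. Called was 1, against 1.92% of all tested genes. It was Map2, a microtubule-associated protein, with 7.46 and 7.25 in GIC, against 9.50 and 9.79 in non-GIC (-2.29, limma adjusted p = 0.0190). Tubb3 went the other way, with 9.77 and 10.06 in GIC, against 7.98 and 9.56 in non-GIC (1.15, limma adjusted p = 0.363). Map2 did not pass with any 1 array left out (limma adjusted p 0.0502 to 0.0785). Between the GIC arrays Rps6ka6 went the other way from the mural and fibroblast list. Between the groups it was higher in GIC, like Pdgfra. Rps6ka6 was selected on that difference and Pdgfra was named after its values were seen, so the shared direction carries no information on cell types. The part of such cell differences in the Rps6ka6 values was not tested. In bulk RNA, fewer cells of a type and less RNA per cell cannot be told apart.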

How the data were processed

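Gene expression was measured on 4 oligonucleotide arrays. Total RNA (5 µg) was biotin-labelled by in vitro transcription, per the labels. The authors deposited log2 values per probe set. All values lie between 2.75 and 15.12, from which the log2 base was inferred. How they were background-corrected, summarised and normalized is not given in the sources used here. No array pair held identical values (0 pairs). No use was made of detection calls.

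Probe sets were named through the platform annotation, with symbols updated by Entrez identifier to GRCm38.p6. Of 45101, 34945 named 1 gene, 932 named several and were left out, as were unnamed and 64 control probe sets. A gene was its probe set with the highest mean, tested if at least 2 arrays exceeded the 40th percentile (5.97). limma 3.58.1 in R 4.3.3 (intensity trend, group as the only term) tested 13366 genes, two-sided, with Benjamini-Hochberg adjustment at 0.05, and in a second fit 27575 probe sets. The fit had 2 residual and 2.72 prior degrees of freedom. An exact permutation test of 1 gene cannot go below p = 0.333. The fit was tested on simulated data shaped like the comparison of GIC with non-GIC (10 simulations, 13366 genes, 200 changed): 18.4% of changes of 1 (log2), 64.8% of 2, 78.2% of 3 and 87.4% of 4 were recovered.

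Members, lists and tests were chosen with earlier results of these data known. Named genes were all members, up to 4 called genes per list (otherwise the 2 of smallest p), the 5 genes most like Rps6ka6, its nearest and its called neighbours, and Sox2, Nes and Vim. Map2k1, Map2k2, Pdpk1, Mapk11, Mapk14, Mapkapk2, Mapkapk3, Mknk1, Creb1, Fos, Egr1, Jun, Ier2, Spred2, Chm, Fabp7, Sox9, Map2, Tubb3, Pdgfra, Cspg4, Sox10 and Mbp were named outside this rule, after their values were seen. Start regions came from RefSeq (GRCm38.p6); 5 of the 6 members had an entry. Alternatives covered a replicate block, scaling, the filter, the choice of probe sets, eBayes settings and leaving out each array. Python 3.11.15 and matplotlib 3.10.9 drew the figures.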

Additional observations from a re-analysis of the deposited data

How the results depend on the processing

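The Rps6ka6 difference kept its direction under all alternatives and lay between 4.50 and 5.50 (log2), except at 3.23 with the mean of its probe sets. In both Rps6ka6 probe sets every GIC array lay above every non-GIC array. Leaving out 1 array or averaging the probe sets could therefore not turn the sign. The family was also selected on this difference, so its kept direction is a description and no test. The tested genes Rps6ka3 and Rps6ka5 and their 5 tested probe sets passed under no alternative and kept their sign; at the 60th percentile filter Rps6ka5 was not tested, and the mean of probe sets has no probe-set fit. The groups lay apart in all tested probe sets of these members, so leaving out 1 array could not turn a sign. Blocks and eBayes settings leave a fold change as it is. Over the whole table, 257 genes were called, against 29 with the replicate block and 685 with a crossed replicate block, which was chosen after seeing the data. The labels do not say that a number marks a shared culture, and the differences between replicates 1 and 2 correlated at -0.32 between sublines over 13366 genes. Leaving out 1 array gave 12 to 188 genes, with the remaining array of a subline assumed to vary like the other subline. Of the pathway genes, 0 passed, against 2 with the crossed block (Sgk1 and Atf3) and 1 with the mean of probe sets (Sgk3). Signs turned for Pou3f4 (-0.0211 with quantile normalization, -0.0272 with median centring, -0.0324 to 0.0403 with an array left out), Vim (0.0257 with quantile normalization, 0.00505 with the mean of probe sets, -0.11 to 0.10 with an array left out), Chm (-0.00281 with the mean of probe sets, -0.00388 to 0.0866 with an array left out), Sos1 (-0.0596 with the mean of probe sets), Fos (-0.0563 to 0.863 with an array left out) and Egr1 (-1.06 to 0.174 with an array left out). Nap1l3, Nes, Fabp7 and Map2 did not pass with the replicate block (limma adjusted p 0.0846 to 0.126), nor Nes without the level filter (0.0503) or the eBayes trend (0.05003). Pdgfra passed with quantile normalization, the 60th percentile filter and the mean of probe sets (0.0432 to 0.0492), and Pdgfra (0.0120) and Sox9 (0.0228) with the crossed block. The cause was not tested. The median of the 20 neighbours of Rps6ka6 was 0.00952, and lay between -0.0555 (60th percentile filter) and 0.118 (without GIC replicate 2), below 0 also with median centring, the mean of probe sets and without non-GIC replicate 1. Signal near the bottom of the range limits the non-GIC values of Rps6ka6 and Nap1l3.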

Other observations

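Among the 408 tested X-linked genes other than Rps6ka6, the highest log2 fold changes, GIC minus non-GIC, were 5.99 for Klhl13, 4.51 for Fgf13, 3.94 for Nap1l2, 3.60 for Gspt2 and 2.84 for Nrk. These were picked by size after their values were seen and carry no test here.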
